A study of Mus musculus with 24 samples.

Results

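Retinal gene expression was compared between 2 inbred mouse strains, WSB/EiJ, which was derived from wild mice, and NZO/HlLtJ, an obese strain. The 6 libraries of the comparison, 3 of each strain, were taken from a series of 24 libraries that covers 8 strains with 3 libraries each. The series was made to relate retinal gene expression to refractive development, contrast sensitivity and susceptibility to myopia across strains. Each library holds total RNA from the retina of wild type mice at postnatal day 28, depleted of ribosomal RNA and sequenced on an Illumina platform. This pair of strains was chosen because they lie close together in baseline refraction and contrast sensitivity in the study's measurements of other mice, while WSB/EiJ develops more myopia than NZO/HlLtJ when an eye is deprived of form vision. Those measurements were not analysed here, and with 1 pair of strains, differences linked to myopia cannot be told apart from any other difference between the strains.

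The retina reads image blur and sends signals through the pigment epithelium and choroid that set the growth of the sclera, so the length of the eye is matched to its optics. Photoreceptors pass light signals to bipolar cells, amacrine cells shape them and ganglion cells send them to the brain. Dopamine and other amacrine transmitters, retinoic acid and bone morphogenetic proteins are among the signals known to take part in eye growth.

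The values are cpm as deposited, that is reads of a gene scaled to the total reads of its library. The depth was 65980000, 71815000 and 57607000 reads in WSB/EiJ replicates 1 to 3 and 68311000, 69574000 and 63760000 reads in NZO/HlLtJ replicates 1 to 3, and all values below are given in this order. A value of 3 reads, taken as the floor, corresponded to 0.0418 to 0.0521 cpm in these libraries and covers counting error only. The labels give no sex. Xist, the RNA of the inactive X chromosome, lay between 0.146 and 0.267 cpm in the 6 libraries, and Ddx3y, a gene of the Y chromosome, between 24.8 and 35.2 cpm, so all 6 carried the pattern of male mice.

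Of 28802 genes in the table, 27810 lie outside chromosomes X and Y, and 15646 of these had a mean of at least 0.5 cpm over the 6 libraries and were tested. A gene was called where limma's q on the scale of log2(cpm + 1) was under 0.01, and differences are WSB/EiJ minus NZO/HlLtJ on that scale, which understates the change of low genes. In all, 4112 genes (26.3%) were called, of which 1859 (11.9% of the genes tested) were higher in WSB/EiJ and 2253 (14.4%) lower. The groups of 3 did not overlap for 7312 genes (46.7%), and 4103 of the called genes were among them. The typical difference was small, with a median size of 0.38 among called genes, and 154 called genes were at least 2-fold higher and 178 at least 2-fold lower in WSB/EiJ. The study treats its libraries as biological replicates. Since the labels name no separate animals, p-values are taken to measure only the spread between these samples, part of which may be technical. The count depended on single libraries: it was 2586 without WSB/EiJ replicate 3, 2502 without NZO/HlLtJ replicate 1 and 2410 without NZO/HlLtJ replicate 2, with 1190, 1227 and 1146 of these higher in WSB/EiJ. Of the called genes, 45.2% were higher in WSB/EiJ, while median-ratio scaling put this share at 53.8%, so neither direction predominated.

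**Figure D1:**
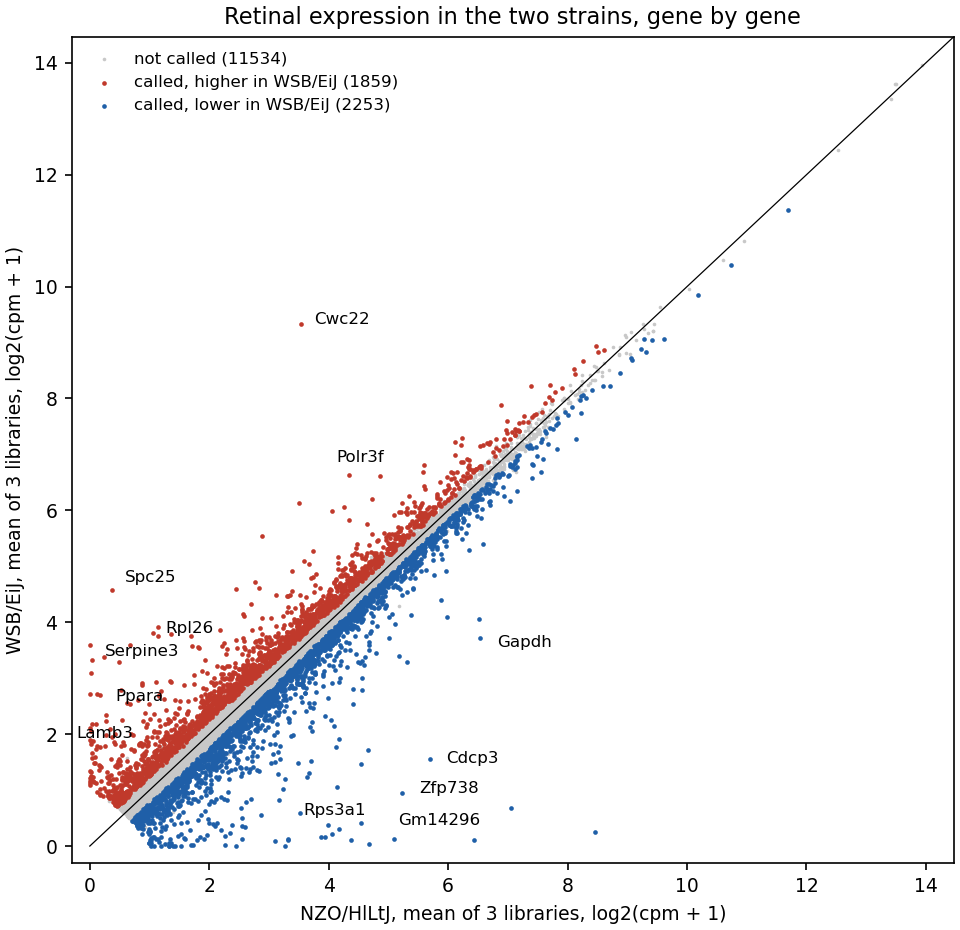
Mean expression of the 15646 genes tested in NZO/HlLtJ (horizontal axis) and WSB/EiJ (vertical axis), each the mean of log2(cpm + 1) over 3 libraries, with 1 point a gene and the line of equal values. Called genes higher in WSB/EiJ are red (1859), those lower are blue (2253) and the others are grey, and Cwc22 stands farthest above the line.

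Libraries of the same strain correlated across genes at 0.9936 to 0.9979 (6 pairs) and libraries of different strains at 0.9701 to 0.9747 (9 pairs), values that describe these libraries only. Among the 28 pairs of strains tested in the same way, WSB/EiJ against NZO/HlLtJ ranked 14 by the number of called genes, and each pair above it included CAST/EiJ or PWK/PhJ. The tests of C57BL/6J against NZO/HlLtJ called 1997 genes (12.7%), of C57BL/6J against WSB/EiJ 2648 (16.8%) and of A/J against NZO/HlLtJ 3725 (23.7%). These comparisons share the WSB/EiJ or the NZO/HlLtJ libraries with the one described here. For 2541 of the called genes (61.8%), the median of the other 6 strains lay nearer to NZO/HlLtJ, against 56.6% over all genes tested.

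The largest positive difference belonged to Cwc22 (chr2:77881159-77946376), which encodes a splicing factor and lies in a segment whose copy number is known to vary between mouse strains. It was at 686, 563 and 684 cpm in WSB/EiJ and 11.0, 10.9 and 10.1 cpm in NZO/HlLtJ. Every WSB/EiJ library was far above every NZO/HlLtJ library, by 60.5-fold in the means (log2 difference 5.79, SE 0.08, limma q = 8e-13), and the other 6 strains averaged 8.71 to 10.9 cpm. Of the 31-base words of Cwc22, 25.0% occur in other annotated genes. The sum with the 7 genes grouped with it by shared words was 647 cpm in WSB/EiJ and 10.7 cpm in NZO/HlLtJ. Copy number was not tested. Within 2 Mb, Ttn, the gene of the muscle protein titin, was at 34.6, 37.7 and 27.6 cpm in WSB/EiJ against 10.6, 11.2 and 11.2 cpm in NZO/HlLtJ (limma q = 2.3e-07). Ttn was low in NZO/HlLtJ and also in CAST/EiJ, where its mean was 4.40 cpm. The other 5 strains averaged 19.5 to 29.7 cpm for Ttn, whereas for Cwc22 every strain but WSB/EiJ was low. Gm13727, a noncoding gene that overlaps Cwc22 on the same strand, was at 2.63, 2.98 and 2.57 cpm in WSB/EiJ and listed at 0 in NZO/HlLtJ. Overlap of Ttn with other genes was not looked up. Both neighbours were chosen after their values were seen.

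Other genes were close to absent in 1 of the strains. Spc25, which encodes a kinetochore subunit, was at 22.9, 20 and 26.1 cpm in WSB/EiJ and 0.366, 0.201 and 0.329 cpm in NZO/HlLtJ. NZO/HlLtJ was low in each library, and A/J was low as well, with a mean of 0.393 cpm (limma q = 7.4e-11 for WSB/EiJ against NZO/HlLtJ). Ppara, a nuclear receptor for fatty acids that switches on their oxidation, was at 6.08, 4.87 and 5.61 cpm in WSB/EiJ and 0.146, 0.101 and 0.141 cpm in NZO/HlLtJ. The strains were 42.6-fold apart in their means (limma q = 1.2e-09), and 129S1/Svlmj was low too, with a mean of 0.165 cpm. Lamb3, a laminin chain of basement membranes, was at 4.47, 3.90 and 3.82 cpm against 0.176, 0.187 and 0.251 cpm (limma q = 3.9e-09), and of the other strains only CAST/EiJ had a high mean, at 4.83 cpm.

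Some genes were high in WSB/EiJ and low in every other strain. Draxin, a secreted axon guidance protein, was at 7.12, 5.05 and 5.73 cpm in WSB/EiJ and 0.469, 0.446 and 0.408 cpm in NZO/HlLtJ, with the other 6 strains between 0.182 and 0.390 cpm. Serpine3, a serine protease inhibitor, was at 13.9, 6.53 and 7.90 cpm in WSB/EiJ, and in NZO/HlLtJ it lay at the floor in 2 libraries and was listed at 0 in replicate 3. The opposite strand of 24.8% of the Serpine3 exon bases belongs to Ints6, and since it is not stated whether the counting used strand, this value is uncertain. Polr3f, a subunit of RNA polymerase III, was at 92.7, 97.0 and 107 cpm in WSB/EiJ and 19.4, 18.8 and 19.5 cpm in NZO/HlLtJ (limma q = 1.5e-10). The groups do not overlap for these 3 genes, but the choice of genes required this.

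Other genes were high in NZO/HlLtJ and low in WSB/EiJ. Cdcp3 was at 1.80, 1.60 and 2.45 cpm in WSB/EiJ and 45.3, 52.7 and 54.3 cpm in NZO/HlLtJ, above all other 21 libraries. Zfp738, a zinc finger gene of chromosome 13, was at 0.863, 1.08 and 0.834 cpm in WSB/EiJ and 39.1, 36.0 and 34.9 cpm in NZO/HlLtJ, and WSB/EiJ was below all other 21 libraries. Col6a3, a chain of collagen VI, was at 1.29, 1.07 and 0.920 cpm in WSB/EiJ and 5.80, 29.9 and 25.3 cpm in NZO/HlLtJ. NZO/HlLtJ replicate 1 lay well below the other 2 libraries of its strain, and without it the log2 difference moved from -3.08 to -3.77.

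In 227 called genes (1.45%) all NZO/HlLtJ libraries lay above the other 21 libraries and in 136 (0.869%) below them, while WSB/EiJ lay above in 295 (1.89%) and below in 398 (2.54%). With NZO/HlLtJ on top stood Fam184b at 38.4, 38.0 and 39.3 cpm against 8.61, 8.59 and 9.15 cpm in WSB/EiJ, a gene whose exon bases overlap the opposite strand of Gm42521 by 20.9%. Col24a1, a fibrillar collagen, was at 16.4, 15.6 and 17.2 cpm in NZO/HlLtJ and 2.30, 2.59 and 2.36 cpm in WSB/EiJ, with other strain means between 0.897 and 12.6 cpm. At the bottom stood Asap3, an activator of the GTPase activity of Arf proteins, at 2.12, 2.26 and 2.32 cpm in NZO/HlLtJ and 14.3, 11.3 and 12 cpm in WSB/EiJ. Akap6, an anchor of protein kinase A, was lower in NZO/HlLtJ at 72.4, 73.8 and 72.4 cpm than in WSB/EiJ at 141, 146 and 144 cpm. WSB/EiJ was highest for Tm7sf3, at 40.7, 35.3 and 37.5 cpm against 12.6, 12 and 12.4 cpm in NZO/HlLtJ. The rule that chose these genes requires the 6 libraries to fall into separate groups by strain, so their separation is no further result.

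Several of the largest differences rest on genes whose reads can be assigned to near-identical copies. Gapdh, the glycolytic enzyme glyceraldehyde-3-phosphate dehydrogenase, was listed at 13.8, 10.2 and 12.6 cpm in WSB/EiJ and 98.7, 88.7 and 88.7 cpm in NZO/HlLtJ. Its copy Gm13394, which shares 97.5% of its words with other genes, was listed at 0.128, 0.114 and 0 cpm against 81.7, 88.5 and 85.6 cpm. The sum of Gapdh with 41 genes was used because each holds at least 50% of its words or shares at least 50% of its own with it. This sum was 104, 65.9 and 85.7 cpm in WSB/EiJ and 226, 222 and 217 cpm in NZO/HlLtJ, a log2 difference of -1.39 in place of -2.83, so the level of Gapdh itself is uncertain. The sums still did not overlap between the strains. Some ribosomal protein genes also have copies. Rps3a1 had 0.105, 0.295 and 0.101 cpm in WSB/EiJ and 15.6, 16 and 15.4 cpm in NZO/HlLtJ, and with its 5 copies the sums were 41.1, 40.9 and 38.9 cpm against 55, 51.6 and 49.2 cpm, which did not overlap. Rpl26 was higher in WSB/EiJ at 13, 12.3 and 13.7 cpm against 1.2, 1.19 and 0.887 cpm, whereas the sum with its 3 copies was lower there, at 36.3 against 42.7 cpm. Rps2 was at 1.02, 0.748 and 0.574 cpm against 7.64, 8.28 and 8.20 cpm, and with the 17 genes grouped with it, among them the overlapping small RNA gene Snora64, the means were 35.2 and 37.0 cpm. How reads were divided among copies cannot be told apart from a difference of Rpl26 or Rps2 itself, while for Gapdh and Rps3a1 a smaller difference remained in the sums.

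Noncoding genes with very large differences also share words with other genes. Gm22513, a small nuclear RNA gene named after its values were seen, was at 0.243, 0.139 and 0.191 cpm in WSB/EiJ and 447, 299 and 323 cpm in NZO/HlLtJ, and 82.8% of its words occur in other genes. With the 12 genes grouped with it by the same 50% rule, the sums were 110, 136 and 98.7 cpm against 568, 385 and 416 cpm and did not overlap. Gm13340, an unprocessed pseudogene also named after its values were seen, was at 0.594, 0.615 and 0.594 cpm against 150, 123 and 126 cpm, with 50.4% of its words in other genes but none grouped with it by that rule, so no sum was made. Gm11425 and Gm9396, processed pseudogenes, were high in WSB/EiJ at 11.6, 11.1 and 10.7 cpm and 7.86, 7 and 7.93 cpm, and the sum of each with Rpl12 and the other copies was 23.1 cpm in WSB/EiJ and 27.2 cpm in NZO/HlLtJ. Alms1-ps2, a transcribed pseudogene, was at 0.230, 0.225 and 0.266 cpm in WSB/EiJ and 18.2, 16.6 and 16.3 cpm in NZO/HlLtJ, a difference of -0.39 once Alms1 and its other pseudogene were added.

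A cluster of zinc finger genes at the end of chromosome 2 held many of the largest negative differences. Zinc finger proteins of this class carry a KRAB domain in many cases and are known as repressors of transposable elements. The cluster was chosen after its values were seen and spans chr2:175086501-178078477, where 41 genes were tested, 24 of them lower and 8 higher in WSB/EiJ, and 10 were lower by at least 2 on the log2 scale. Gm14296 was at 0.235, 0.0322 and 0.00604 cpm in WSB/EiJ, the last 2 under the floor, and 34.6, 33.4 and 31.4 cpm in NZO/HlLtJ. Zfp966 was at 0.272, 0.381 and 0.317 cpm in WSB/EiJ and 23.8, 21.1 and 22.3 cpm in NZO/HlLtJ. Zfp973 was at 0.0949, 0.15 and 0.114 cpm in WSB/EiJ and 14.6, 13.6 and 12.5 cpm in NZO/HlLtJ. CAST/EiJ was also low for these 3 genes, with means of 0.261, 1.22 and 0.339 cpm, while the other 5 strains resembled NZO/HlLtJ or exceeded it for Gm14296 and Zfp966. Gm14399 was low in WSB/EiJ, at 1.68, 1.90 and 1.68 cpm against 23.6, 21.4 and 22.2 cpm, and NOD/ShiLtJ and PWK/PhJ were low for it as well, at means of 1.59 and 4.46 cpm.

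Other members went the opposite way. Gm14403 was at 9.35, 12.5 and 10.4 cpm in WSB/EiJ and 2.73, 2.75 and 2.18 cpm in NZO/HlLtJ, and Gm14419 at 6.17, 7.61 and 6.59 cpm against 2.18, 0.991 and 1.56 cpm. A median of 91.6% of the 31-base words of these 41 genes occurs in other genes, and 24 of the genes share at least 90%, so the value of a single gene is uncertain. The sum over the cluster does not depend on how reads were divided among its tested members. It was 160, 204 and 169 cpm in WSB/EiJ and 387, 356 and 352 cpm in NZO/HlLtJ, and the means of the other strains ran from 338 cpm in A/J to 512 cpm in PWK/PhJ. WSB/EiJ therefore had the lowest sum of the 8 strains, and its 3 libraries did not overlap with any of the other 21. Reads lost to sequence differences between WSB/EiJ and the reference would lower such a sum, and their part in the result was not tested.

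The promoters of 3 of these genes that were low together, Zfp966, Zfp967 and Zfp973, were compared, and a pair of them is shown because they are near-identical. Those of the other genes were not compared. The RefSeq promoters on GRCm38.p6 run from 250 bases before to 50 bases after the gene start. Zfp966 (chr2:175931051-175931350, minus strand) and Zfp967 (chr2:176520754-176521053, plus strand) have the same 300 bases. Zfp973 (chr2:176670272-176670571, plus strand) starts 26 bases further upstream in this alignment and differs from Zfp966 in 1 of 274 overlapping bases. Capitals mark the bases that are identical between the 2 promoters in that overlap.
Zfp966: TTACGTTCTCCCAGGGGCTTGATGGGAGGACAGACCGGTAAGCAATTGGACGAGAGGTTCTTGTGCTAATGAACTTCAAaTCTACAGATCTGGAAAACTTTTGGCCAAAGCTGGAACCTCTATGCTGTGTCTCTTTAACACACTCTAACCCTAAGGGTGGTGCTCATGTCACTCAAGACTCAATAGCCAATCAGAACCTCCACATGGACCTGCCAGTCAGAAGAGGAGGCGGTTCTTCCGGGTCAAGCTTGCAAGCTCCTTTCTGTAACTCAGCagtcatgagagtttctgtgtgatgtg
Zfp973: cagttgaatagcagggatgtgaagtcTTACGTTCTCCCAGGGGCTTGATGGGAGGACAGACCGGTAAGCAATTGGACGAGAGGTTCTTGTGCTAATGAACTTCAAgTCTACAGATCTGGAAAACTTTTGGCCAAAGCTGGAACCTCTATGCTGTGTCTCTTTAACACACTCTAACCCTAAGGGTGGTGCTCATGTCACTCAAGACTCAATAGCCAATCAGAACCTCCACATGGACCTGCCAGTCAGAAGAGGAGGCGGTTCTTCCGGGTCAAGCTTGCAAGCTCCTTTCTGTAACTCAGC
Zfp967 was low in WSB/EiJ along with these genes, at 0.0835, 0.132 and 0.0696 cpm against 4.47, 4.95 and 5.09 cpm in NZO/HlLtJ.

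**Figure D2:**
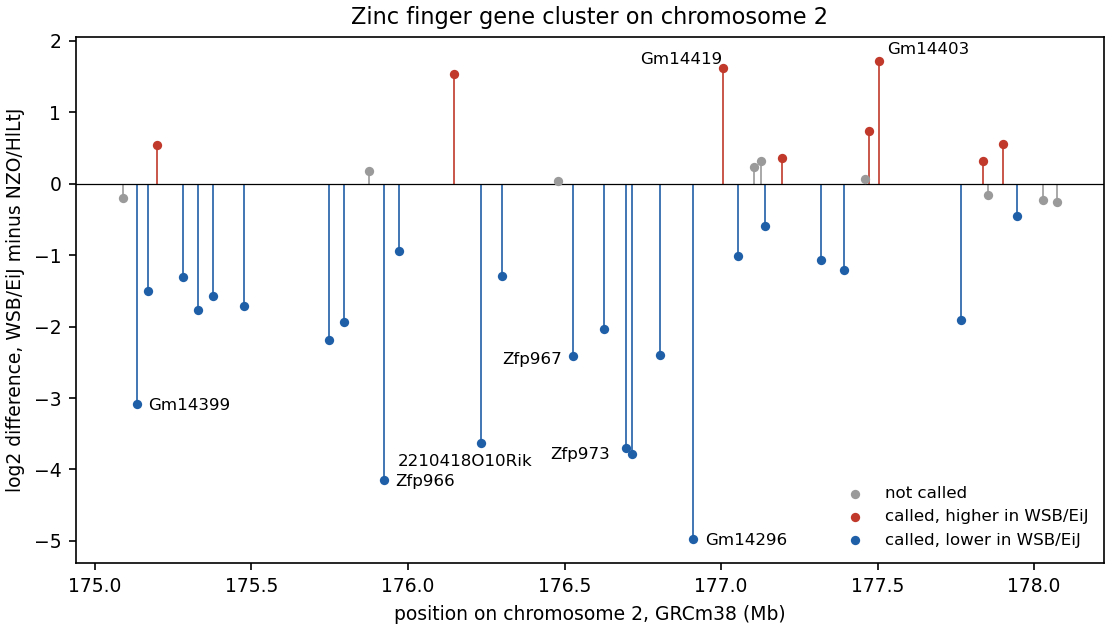
Log2 difference (WSB/EiJ minus NZO/HlLtJ, vertical axis) of the 41 tested genes of the zinc finger cluster against their position on chromosome 2 in Mb of GRCm38 (horizontal axis), with 1 stem a gene. Blue stems mark the 24 called genes lower in WSB/EiJ, red stems the 8 higher and grey stems the 9 not called.

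Genes of cone phototransduction were mostly higher in WSB/EiJ. Of 10 tested, 6 were higher and 1 lower, with a median difference of 0.32 against -0.03 over all genes. Opn1sw, the short-wavelength cone opsin, was at 158, 140 and 141 cpm in WSB/EiJ and 107, 95.0 and 95.6 cpm in NZO/HlLtJ, a 1.47-fold difference (limma q = 3.5e-05), with 15.5% of its exon bases opposite to Calu. Pde6c, the catalytic subunit of cone phosphodiesterase, was at 30.1, 24.7 and 29.8 cpm in WSB/EiJ and 14.0, 12.4 and 12.2 cpm in NZO/HlLtJ, a 2.19-fold difference (limma q = 1.1e-06). Pde6h, the inhibitory subunit of the same enzyme, went the other way, at 11.6, 9.02 and 9.22 cpm against 28.0, 25.5 and 27.0 cpm (limma q = 2.3e-07). The catalytic and inhibitory subunits thus differed in opposite directions, and the strains did not overlap for either. Slc24a2, the cone sodium-calcium-potassium exchanger, was at 40.4, 43.9 and 39.5 cpm against 31.2, 31 and 32.0 cpm. The number of cone genes higher in WSB/EiJ fell to 3 without WSB/EiJ replicate 3, NZO/HlLtJ replicate 2 or NZO/HlLtJ replicate 3. In whole retina, fewer cells of a type and less RNA per cell cannot be told apart.

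Among 10 rod phototransduction genes, 1 was called higher and 2 lower (30% called, 26.3% over all genes tested). The median was -0.13 (-0.22 without WSB/EiJ replicate 1 and -0.05 without WSB/EiJ replicate 2). Gngt1, the gamma subunit of rod transducin, was at 435, 416 and 411 cpm in WSB/EiJ and 571, 513 and 517 cpm in NZO/HlLtJ (limma q = 0.00051). Cngb1, a subunit of the rod channel, was the gene called higher (0.33, limma q = 0.0041), and without WSB/EiJ replicate 1, WSB/EiJ replicate 3, NZO/HlLtJ replicate 1 or NZO/HlLtJ replicate 2 its q was 0.0138, 0.0221, 0.0210 and 0.0183. The number of rod genes higher was then 0, and the number lower was 1 without WSB/EiJ replicate 3 or any NZO/HlLtJ library. Of 12 genes of recovery from light, 2 were higher and 3 lower in WSB/EiJ, with a median of -0.04 that was -0.14 without WSB/EiJ replicate 1 and 0.06 without WSB/EiJ replicate 2, and 5 were higher without WSB/EiJ replicate 2 and 1 lower without NZO/HlLtJ replicate 3. Quantile normalization gave 3 higher and 2 lower for this list. Rdh8, a retinol dehydrogenase of photoreceptor outer segments that reduces all-trans-retinal, was at 9.47, 7.44 and 8.54 cpm in WSB/EiJ and 23, 22.7 and 23.5 cpm in NZO/HlLtJ. WSB/EiJ was 2.72-fold lower in the means (limma q = 1e-07), below the means of the other 6 strains, which ran from 14.5 to 30.0 cpm. Rgs9 and its partner Gnb5, which speed the shutdown of transducin, were both higher in WSB/EiJ, with differences of 0.33 and 0.48 (limma q = 0.001 and 7.1e-05).

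Of 14 transcription factors of photoreceptors, 5 were higher and 0 lower in WSB/EiJ, with a median of 0.16 (0.07 without WSB/EiJ replicate 1). Samd7, a repressor of non-rod genes in rods, led them at 60.5, 61.9 and 63.2 cpm against 36.1, 40.1 and 38.9 cpm (limma q = 1.5e-06). The count was less stable than this gene: it was 1 without WSB/EiJ replicate 3 or NZO/HlLtJ replicate 3 and 2 without NZO/HlLtJ replicate 1 or NZO/HlLtJ replicate 2, while 1 gene was lower without WSB/EiJ replicate 1 or replicate 2. At the photoreceptor ribbon synapse, 3 of 18 genes were higher and 3 lower (33.3% called, 26.3% over all genes tested). There were 7 higher without WSB/EiJ replicate 2 and 1 lower without WSB/EiJ replicate 3 or any NZO/HlLtJ library. The active zone scaffolds Pclo and Bsn were higher in WSB/EiJ, Pclo at 174, 217 and 193 cpm against 118, 126 and 133 cpm, with differences of 0.62 and 0.48 (limma q = 4.9e-05 and 0.0006). Stx3, the syntaxin of ribbon synapses, was lower at 165, 149 and 150 cpm against 294, 276 and 270 cpm (limma q = 4.6e-07).

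**Figure D3:**
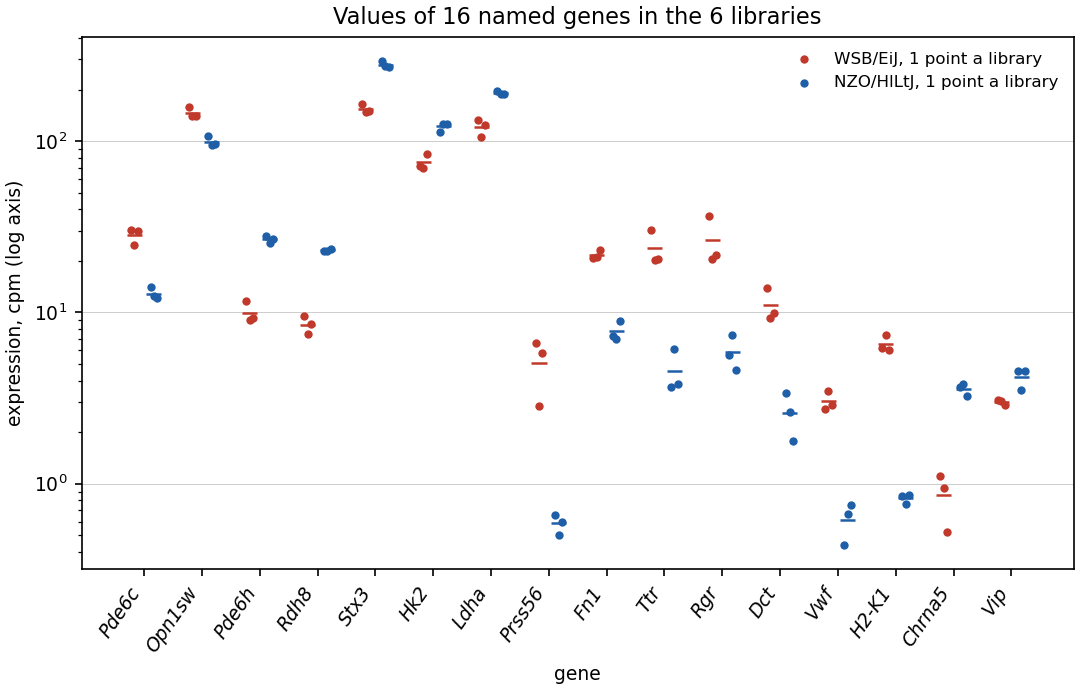
Expression of 16 genes in cpm on a log axis (vertical), with 1 point a library, WSB/EiJ in red and NZO/HlLtJ in blue, and a bar at the mean of each strain's 3 libraries. The strains do not overlap for any of the 16 genes, which were picked from the called genes. The same holds for 4103 of the 4112 called genes and for 46.7% of all genes tested. Pde6c and Pde6h differ in opposite directions.

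Of 20 genes of bipolar cells and their glutamate receptor pathway, 7 were higher and 2 lower in WSB/EiJ, with a median of 0.11 (0.07 without WSB/EiJ replicate 1). Cabp5, a calcium-binding protein of bipolar cells, was at 47.4, 40.5 and 42.0 cpm against 26.7, 26.6 and 28.7 cpm, and Prkca, the kinase that marks rod bipolar cells, at 194, 182 and 190 cpm against 141, 149 and 146 cpm. Gpr179, which holds the signalling complex of ON bipolar cells together, was higher by 0.49 (limma q = 0.00045), and Scgn, secretagogin of cone bipolar cells, differed by -0.36 (limma q = 0.00085). Without WSB/EiJ replicate 3 or NZO/HlLtJ replicate 2, 3 were higher, and without NZO/HlLtJ replicate 1 or replicate 2, 1 was lower. Of 20 amacrine and horizontal cell genes tested out of 22, 8 were higher and 1 lower (0 without NZO/HlLtJ replicate 1), also with a median of 0.11 (0.07 without NZO/HlLtJ replicate 1 and 0.17 without NZO/HlLtJ replicate 3). Gad1, which makes GABA, was at 74.2, 72.9 and 72.5 cpm against 58.2, 55.1 and 52.2 cpm, and Nos1, which makes nitric oxide, at 4.93, 4.93 and 4.70 cpm against 3.04, 3.03 and 3.25 cpm. Slc5a7, the choline transporter of starburst amacrine cells, was higher by 0.61 (limma q = 0.00014). Among 17 ganglion cell genes 4 were higher (1 with no filter) and 0 lower, led by Spp1, the secreted protein osteopontin, at 3.93, 4.22 and 4.51 cpm against 2.08, 1.42 and 1.60 cpm, with 18.8% of its exon bases shared with Gm42793.

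Müller glia genes moved in both directions, with 4 higher and 5 lower of 18 tested (4 and 4 under either scaling). Higher genes numbered 2 without WSB/EiJ replicate 1, WSB/EiJ replicate 3, NZO/HlLtJ replicate 2 or NZO/HlLtJ replicate 3, and lower genes 2 without NZO/HlLtJ replicate 1 and 3 without WSB/EiJ replicate 3, NZO/HlLtJ replicate 2 or NZO/HlLtJ replicate 3. Dkk3, a secreted glycoprotein of Müller cells, was lower in WSB/EiJ at 157, 134 and 144 cpm against 208, 201 and 201 cpm. Serpina3n, a protease inhibitor of reactive glia, was higher at 1.95, 1.46 and 1.63 cpm against 0.659, 0.259 and 0.220 cpm (limma q = 4.2e-05), with 21.6% of its words in other genes. Of 10 microglia and complement genes tested out of 20, 1 was higher and 2 lower (30% called, 26.3% over all genes tested). In this list 2 were higher without WSB/EiJ replicate 2 and 0 without any other 1 library. P2ry12, a receptor of resting microglia, differed by -0.41 (limma q = 0.0014), and C4b, a complement component, by -0.68, although its sum with the near copy C4a differed by -0.10. Among 20 genes of vessels and hypoxia 3 were higher and 3 lower (30% called, 26.3% over all genes tested). Vwf, the clotting factor of endothelium, was at 2.73, 3.45 and 2.90 cpm against 0.439, 0.661 and 0.753 cpm, and Hif1a, the oxygen-sensitive transcription factor, was lower at 227, 202 and 210 cpm against 318, 289 and 286 cpm.

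Class I genes of the major histocompatibility complex differed between the strains. H2-K1 was at 6.23, 7.38 and 6.04 cpm in WSB/EiJ and 0.849, 0.762 and 0.856 cpm in NZO/HlLtJ, H2-D1 at 11.2, 12.1 and 12.5 cpm against 4.12, 4.40 and 4.89 cpm, and H2-Q4 at 1.63, 1.81 and 1.66 cpm against 0.333, 0.374 and 0.295 cpm. All 3 encode class I cell surface proteins, belong to haplotypes that differ in sequence between strains and share 22.8%, 26.7% and 38.4% of their words with other genes, so their levels are uncertain. Of the H2-Q4 exon bases, 19.1% lie opposite to Gm11131. H2-K1, H2-D1 and H2-Q4 were the 3 called genes among 9 tested of 20 in this list, and all were higher in WSB/EiJ, with 1 lower gene added without WSB/EiJ replicate 1. The interferon list had 1 gene higher and 1 lower of 12 tested (0 lower without any 1 library but WSB/EiJ replicate 2), the higher one being Ifit3, which together with its near copy Ifit3b had 3.81 cpm in WSB/EiJ and 1.74 cpm in NZO/HlLtJ.

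Markers of the retinal pigment epithelium, a layer that can remain attached when the retina is removed, were higher in WSB/EiJ. Of 15 genes in the list, 11 were tested, 9 were called higher (4 with no filter) and 0 lower, with a median of 0.75. Ttr, the retinol carrier transthyretin, was at 30.1, 20.2 and 20.5 cpm in WSB/EiJ and 3.69, 6.09 and 3.83 cpm in NZO/HlLtJ, and Rgr, a retinal isomerase that Müller cells also make, at 36.6, 20.6 and 21.7 cpm against 5.67, 7.37 and 4.6 cpm. Dct, an enzyme of melanin synthesis, was at 14.0, 9.22 and 9.86 cpm against 3.38, 2.62 and 1.77 cpm. Rpe65, the isomerase that defines this layer, was at 5.82, 2.73 and 3.07 cpm against 1.30, 2.03 and 1.33 cpm, and its q moved from 0.0020 to 0.0140 without NZO/HlLtJ replicate 1. The summed level of the 15 genes was 139, 87.1 and 95.7 cpm in WSB/EiJ and 44.0, 47.9 and 37.2 cpm in NZO/HlLtJ, with Rgr as the most abundant gene in each WSB/EiJ library and Rdh10, which the neural retina also expresses, in each NZO/HlLtJ library. Rdh10 was at 24.1, 16.8 and 19.3 cpm against 17, 16.2 and 15.7 cpm and was not called. WSB/EiJ replicate 1 had the highest sum, and all 3 WSB/EiJ libraries were above all 3 of NZO/HlLtJ. Best1, a channel of this layer, was listed at 0 in WSB/EiJ and reached 0.0942 cpm in NZO/HlLtJ. The number of genes higher was 5 without WSB/EiJ replicate 1 or NZO/HlLtJ replicate 1. The part of this tissue in other results was not tested.

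Lens and blood genes were followed for the same reason. Of 22 lens genes, 16 were tested, 1 was called higher and 0 lower. Without NZO/HlLtJ replicate 1 there were 0 higher and 2 lower, without NZO/HlLtJ replicate 3 there were 0 higher, and without WSB/EiJ replicate 1 there were 3 lower. The summed level was 75.6, 17.9 and 17.1 cpm in WSB/EiJ and 24.0, 68.6 and 46.7 cpm in NZO/HlLtJ, with Cryaa, the alpha-crystallin of lens fibres, as the most abundant gene and Birc7 under the floor in all 6 libraries. WSB/EiJ replicate 1 and NZO/HlLtJ replicate 2 were high, and the strains overlapped. Of 7 blood genes, 3 were tested and all 3 were lower in WSB/EiJ. The sum was 15.8, 13.4 and 15 cpm in WSB/EiJ and 18.4, 19.4 and 21.4 cpm in NZO/HlLtJ, with the globin gene Hbb-bs the most abundant. Only Hbb-bt among them kept its call without any 1 library, and it shares 59.4% of its words with other genes, chiefly Hbb-bs. The number of blood genes lower was 1 without WSB/EiJ replicate 3 or any of the NZO/HlLtJ libraries. It was 2 under either scaling, where Hbb-bs lost its call, and 1 with all 24 libraries. The part of lens and blood in other results was not tested.

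**Figure D4:**
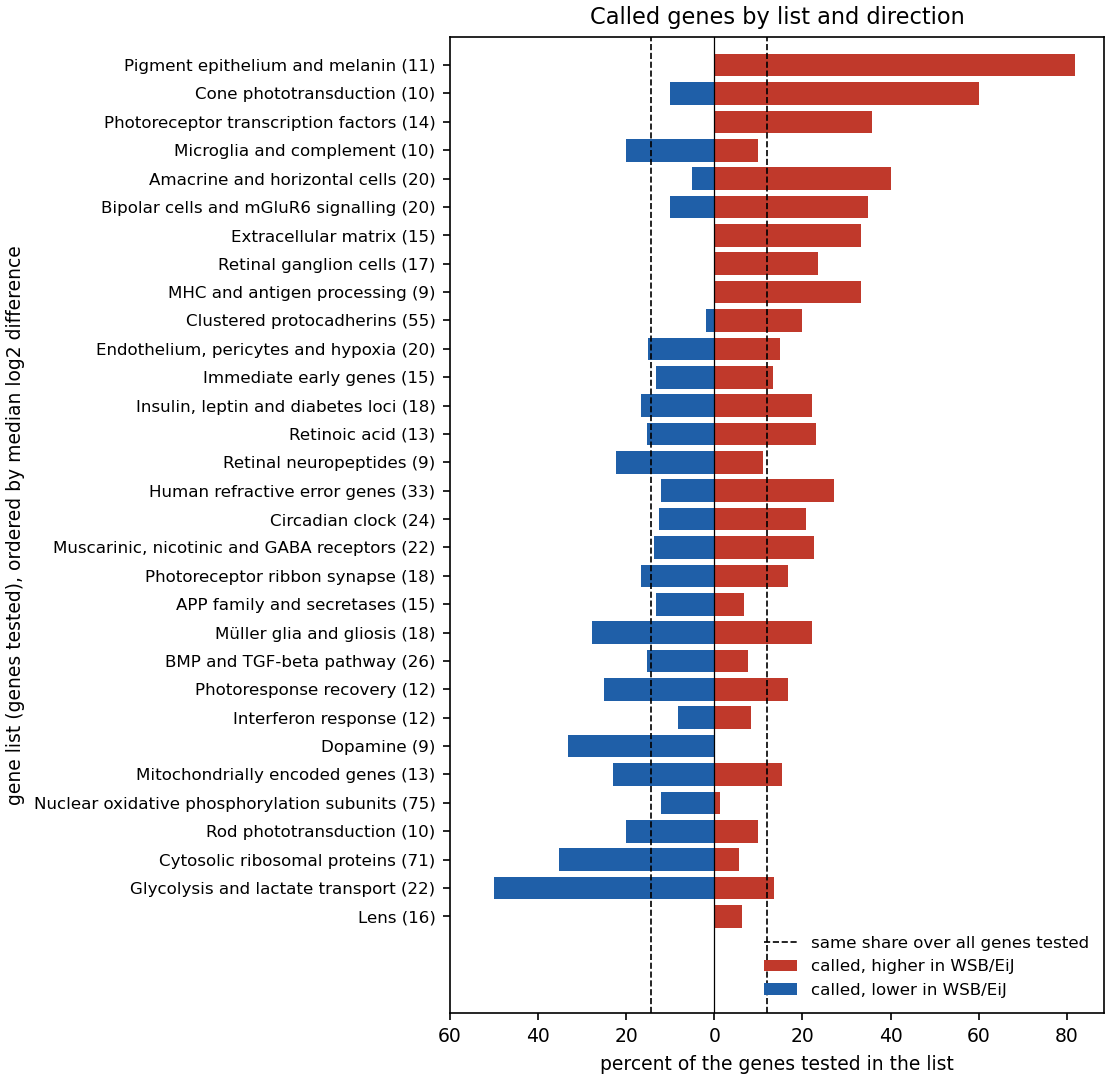
Share of tested genes that were called higher (red, to the right) or lower (blue, to the left) in WSB/EiJ, in percent, for each gene list with at least 9 genes tested, ordered by median log2 difference. The dashed lines give the same shares over all 15646 genes tested, 11.9% and 14.4%, and pigment epithelium and cone lists extend farthest to the right.

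Dopamine, made by a class of amacrine cells, is the transmitter most often tied to the slowing of eye growth. Th, its rate-limiting enzyme, was at 0.470, 0.432 and 0.521 cpm in WSB/EiJ and 0.512, 0.704 and 0.737 cpm in NZO/HlLtJ, and it was not called (limma q = 0.047). Of 9 dopamine genes tested out of 12, the receptors Drd1, Drd4 and Drd5 were called lower in WSB/EiJ (33.3% called, 26.3% over all genes tested). Drd4, the receptor of photoreceptors, was at 25.9, 14.6 and 20.3 cpm against 27.2, 28.4 and 29.7 cpm (limma q = 0.009), Drd1 at 20.8, 18.2 and 19.9 cpm against 25.0, 22.9 and 23.2 cpm (limma q = 0.0035), and Drd5 at 0.606, 0.696 and 0.486 cpm against 0.922, 1.14 and 1.08 cpm (limma q = 0.0019). All NZO/HlLtJ libraries were above all WSB/EiJ libraries for these receptors, and 48.6% of the Drd5 exon bases lie opposite to Gm26560. The calls were fragile. Without WSB/EiJ replicate 3, limma's q was 0.0248 for Drd4, 0.013 for Drd1 and 0.0121 for Drd5, and without NZO/HlLtJ replicate 2 it was 0.0311, 0.0128 and 0.0131. Without NZO/HlLtJ replicate 1 or replicate 3, q was 0.0264 and 0.0296 for Drd4 and 0.0201 and 0.0103 for Drd1. Without WSB/EiJ replicate 2, the difference of Drd4 moved from -0.50 to -0.30. Drd4 also lost its call with a mean of at least 5 cpm (limma q = 0.0110) and without the trend (limma q = 0.0139). With Benjamini-Hochberg adjustment of limma's p it was at 0.0245. With no filter, Drd1, Drd4 and Drd5 all lost the call. The number of dopamine genes lower was 0 without WSB/EiJ replicate 3 or NZO/HlLtJ replicate 2 and 1 without NZO/HlLtJ replicate 1 or replicate 3, and 1 gene was higher without WSB/EiJ replicate 2.

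Vip, a peptide of amacrine cells linked to eye growth, was at 3.08, 3.04 and 2.86 cpm in WSB/EiJ and 4.55, 3.54 and 4.56 cpm in NZO/HlLtJ. WSB/EiJ was lower in every library (limma q = 0.0033), but q was 0.0165 without WSB/EiJ replicate 3, 0.0203 without NZO/HlLtJ replicate 1 and 0.0165 without NZO/HlLtJ replicate 3. Among 9 neuropeptide genes tested of 16, 1 was higher and 2 lower (33.3% called, 26.3% over all genes tested). Cck, the peptide cholecystokinin, was the other lower gene, at 0.743, 0.794 and 1.04 cpm against 1.73, 1.62 and 1.60 cpm. Higher genes of this list numbered 0 without WSB/EiJ replicate 1 or any NZO/HlLtJ library, and 1 was lower without WSB/EiJ replicate 3, NZO/HlLtJ replicate 1 or NZO/HlLtJ replicate 3. Egr1, an immediate early gene whose retinal level responds to defocus, was at 2.03, 1.5 and 1.27 cpm against 1.46, 1.75 and 2.84 cpm. The strains overlapped for Egr1 and it was not called (limma q = 0.131). Of 15 immediate early genes 2 were higher (1 without WSB/EiJ replicate 3, NZO/HlLtJ replicate 1 or NZO/HlLtJ replicate 2) and 2 lower. That is 26.7% called, about the 26.3% over all genes tested. Ier3, a survival gene induced by stress, was at 6.77, 4.51 and 5.73 cpm against 9.91, 9.57 and 9.80 cpm. Of 24 clock genes 5 were higher and 3 lower (0 and 1 with no filter), with 33.3% called against 26.3% over all genes tested. Among them was Bhlhe41, a repressor within the clock, at 24.0, 19.6 and 23.7 cpm against 37.6, 39.0 and 39.4 cpm, with 19.0% of its exon bases opposite to Gm43909. The number of clock genes higher was 1 without WSB/EiJ replicate 3 and 2 without NZO/HlLtJ replicate 1 or replicate 2.

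Aplp2, a relative of the amyloid precursor protein whose loss alters eye growth in mice, was at 275, 283 and 277 cpm in WSB/EiJ and 279, 260 and 260 cpm in NZO/HlLtJ and was not called (limma q = 0.137). Its list had 1 gene higher and 2 lower of 15 (2 and 2 with median-ratio scaling), with 0 higher without WSB/EiJ replicate 1, WSB/EiJ replicate 3, NZO/HlLtJ replicate 1 or NZO/HlLtJ replicate 2, and 1 lower without any NZO/HlLtJ library. Bmp2 was at 0.182, 0.279 and 0.139 cpm in WSB/EiJ and 0.0440, 0.0432 and 0.110 cpm in NZO/HlLtJ, and Bmp4 at 0.379, 0.251 and 0.243 cpm against 0.0587, 0.144 and 0.110 cpm. Both growth factors were higher in each WSB/EiJ library than in any of NZO/HlLtJ, but their means were below 0.5 cpm, so neither was tested. Bmp2 lay at the floor of 3 reads in NZO/HlLtJ replicates 1 and 2. Of 26 genes of the BMP and TGF-beta pathway tested out of 34, 2 were higher (4 without WSB/EiJ replicate 2) and 4 lower (2 without NZO/HlLtJ replicate 2). Median-ratio scaling gave 5 higher and 4 lower and quantile normalization 4 and 4, so this list had no direction that held. Bmp3, an antagonistic family member, was at 4.79, 3.84 and 3.70 cpm against 6.4, 7.4 and 7.25 cpm, and Bmp1, a protease that matures procollagen, at 6.27, 5.40 and 5.83 cpm against 3.09, 3.15 and 3.51 cpm.

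Retinoic acid genes had 3 higher and 2 lower of 13 tested (0 and 1 with no filter, 0 and 0 with a mean of at least 5 cpm). Crabp1, the cytosolic binding protein, was at 0.591, 0.724 and 0.642 cpm against 2.12, 1.71 and 1.62 cpm. Stra6, the retinol uptake receptor of the pigment epithelium, was higher by 0.70 (limma q = 0.00067). Of 22 muscarinic, nicotinic and GABA receptor genes 5 were higher and 3 lower, and 1 was lower without WSB/EiJ replicate 3 or any NZO/HlLtJ library. Chrna5, a nicotinic subunit, was at 1.11, 0.947 and 0.521 cpm in WSB/EiJ and 3.65, 3.82 and 3.23 cpm in NZO/HlLtJ, above the means of the other 6 strains, which ran from 0.592 to 1.64 cpm. Chrm2, a muscarinic receptor named after its values were seen, was at 8.85, 10.4 and 9.11 cpm against 7.44, 7.14 and 6.85 cpm (limma q = 0.0013).

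Of 37 genes linked to refractive error in people, 33 were tested, 9 were higher and 4 lower in WSB/EiJ, with a median of 0.01. This median changed sign without WSB/EiJ replicate 3 or NZO/HlLtJ replicate 2 (-0.02 in the latter) and was 0.05, 0.04, 0.02 and 0.05 without WSB/EiJ replicate 1, WSB/EiJ replicate 2, NZO/HlLtJ replicate 1 and NZO/HlLtJ replicate 3. With a mean of at least 5 cpm, 19 genes were tested, 3 were higher and 2 lower, and the median was -0.004. Prss56, a serine protease of Müller glia whose mutation shortens the eye, was at 6.64, 2.83 and 5.78 cpm in WSB/EiJ and 0.659, 0.503 and 0.596 cpm in NZO/HlLtJ. Its means differed 8.67-fold (limma q = 1.7e-05), and WSB/EiJ replicate 2 was the lowest of its strain while still above all NZO/HlLtJ libraries. Mfrp, a pigment epithelium protein whose loss also shortens the eye, was at 2.92, 1.91 and 2.64 cpm against 0.613, 1.17 and 0.764 cpm, with 36.7% of its exon bases shared with C1qtnf5 on the same strand. Rdh5, a retinol dehydrogenase of the pigment epithelium, was at 4.33, 2.94 and 3.43 cpm against 1.24, 1.68 and 1.29 cpm and shares 25.6% of its exon bases with Bloc1s1. Ctsh, a lysosomal protease, was lower at 1.74, 1.43 and 1.60 cpm against 3.43, 2.90 and 3.22 cpm. Gjd2, the neuronal gap junction protein connexin 36, was at 33.2, 32.3 and 35.7 cpm against 31.9, 32.7 and 34.1 cpm, the strains overlapped and it was not called (limma q = 0.241). Of this list, 5 were higher without WSB/EiJ replicate 1, WSB/EiJ replicate 3, NZO/HlLtJ replicate 1 or NZO/HlLtJ replicate 2, and 2 were lower without WSB/EiJ replicate 3 or NZO/HlLtJ replicate 1.

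The list of extracellular matrix genes, which does not hold Col6a3 or Col24a1, had 5 higher and 0 lower (1 without WSB/EiJ replicate 1) of 15 tested out of 22 and a median of 0.11. The median was 0.04 without WSB/EiJ replicate 1, 0.21 without WSB/EiJ replicate 2 and 0.22 without NZO/HlLtJ replicate 3. Fn1, the matrix glycoprotein fibronectin, was at 20.7, 20.9 and 23 cpm in WSB/EiJ and 7.30, 6.99 and 8.96 cpm in NZO/HlLtJ, a 2.78-fold difference (limma q = 2e-07). Timp3, an inhibitor of matrix proteases that the pigment epithelium secretes, was at 28.9, 25.3 and 27.8 cpm against 17.6, 17.2 and 16.6 cpm, with 21.3% of its exon bases opposite to Syn3. Tnc, the matrix protein tenascin C, was higher by 0.36 (limma q = 0.00034). In the list of insulin signalling and diabetes genes 4 were higher and 3 lower of 18 tested, and 2 were higher without NZO/HlLtJ replicate 1 and 1 without NZO/HlLtJ replicate 2. Foxo3, a transcription factor held in check by insulin, was at 59.7, 59.5 and 65.9 cpm against 40.1, 44.8 and 52.1 cpm, and Igf2, an insulin-like growth factor, at 3.84, 3.31 and 3.54 cpm against 5.91, 5.91 and 6.13 cpm, with 62.8% of its exon bases shared with Gm49394.

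Of 22 genes of glycolysis and lactate transport tested, 11 were lower and 3 higher in WSB/EiJ, with a median of -0.25, and the number lower stayed between 8 and 12 when each library was left out in turn. With no filter 5 were lower and 1 higher, and the 11 include Gapdh, whose level is uncertain. The number higher was 1 without WSB/EiJ replicate 3 or NZO/HlLtJ replicate 2 and 6 without WSB/EiJ replicate 2. Median-ratio scaling gave 6 higher and 11 lower, and quantile normalization 5 higher and 11 lower. Hk2, the hexokinase that starts glycolysis in photoreceptors, was at 72.0, 70.1 and 84.5 cpm in WSB/EiJ and 113, 126 and 126 cpm in NZO/HlLtJ. Ldha, which turns pyruvate into lactate, was at 132, 105 and 124 cpm against 197, 189 and 189 cpm, with 19.6% of its words in other genes, and Slc16a3, an exporter of lactate, at 7.29, 6.28 and 8.11 cpm against 10.3, 11.6 and 11.5 cpm. Aldoa, an aldolase named after its values were seen, was at 350, 261 and 291 cpm against 444, 410 and 404 cpm. WSB/EiJ replicate 2 was the lowest library for each of these genes, and the strains did not overlap for any of the 4. Slc2a1, the glucose transporter of retina and pigment epithelium, was among the 3 higher genes, at 37.3, 33.3 and 36.1 cpm against 28.8, 28.6 and 28.9 cpm.

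Of 75 nuclear genes for oxidative phosphorylation 1 was higher and 9 lower. This is 13.3% called, against 26.3% over all genes tested (11.9% higher and 14.4% lower). The median was -0.09 (-0.15 without WSB/EiJ replicate 1 and -0.02 without WSB/EiJ replicate 2). The number lower was 3 without WSB/EiJ replicate 3, NZO/HlLtJ replicate 1 or NZO/HlLtJ replicate 2, and 2 were higher without WSB/EiJ replicate 2. Sdhb, a subunit of complex II, was at 8.58, 7.24 and 8.47 cpm against 12.3, 11.1 and 11.5 cpm. Among the 13 protein genes of mitochondrial DNA 2 were higher and 3 lower (1 without WSB/EiJ replicate 3, and 2 under either scaling). mt-Nd1, a complex I subunit, was at 489, 539 and 437 cpm in WSB/EiJ and 379, 333 and 354 cpm in NZO/HlLtJ, while mt-Cytb, a complex III subunit, was at 465, 494 and 413 cpm against 665, 604 and 648 cpm. These 2 genes of the same circular genome thus differed in opposite directions. Cytosolic ribosomal protein genes had 25 lower and 4 higher of 71 tested (13 lower with no filter), with a median of -0.17, and many of them have processed copies elsewhere in the genome. The median difference also varied with transcript length, from -0.06 in the shortest of 5 classes of genes to 0.01 in the longest. The share called higher rose from 7.4% to 19.1% between these classes, while the share called lower was 14.4% and 14.1%. The part of length in the counts of any list was not tested.

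The clustered protocadherins, cell surface proteins that give neurons an identity and are encoded in tandem on chromosome 18, had 11 higher and 1 lower of 55 tested, with a median of 0.06. Pcdhb6 was at 6.68, 6.69 and 6.62 cpm against 3.81, 3.63 and 3.17 cpm, and Pcdhb9 at 4.15, 3.44 and 3.99 cpm against 7.28, 7.12 and 7.13 cpm, with 17.5% and 17.8% of their words in other genes. Pcdha1 was at 1.89, 1.84 and 1.29 cpm against 0.0753, 0.177 and 0.147 cpm, but the alpha genes share their last exons, and its sum with 12 others was 60.4 against 53.1 cpm. The number higher was 7 without WSB/EiJ replicate 1, WSB/EiJ replicate 3 or any of the NZO/HlLtJ libraries, and 3 were lower without WSB/EiJ replicate 2.

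Called genes were spread over all chromosomes tested, which leave out X and Y. The share ran from 21.5% of the genes tested on chromosome 11 to 31.4% on chromosome 4, with 6 of 15 on the mitochondrial genome. Among 388 windows of 5 Mb with at least 15 genes, the share was highest in the window that holds the zinc finger cluster, at 67.3%. On chromosome 5 the window from 45 to 50 Mb had 28 of 42 genes called, 20 of them higher in WSB/EiJ. On chromosome 13 the window from 115 to 120 Mb had 12 of 18 called, 9 of them lower.

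The list medians given as numbers kept their sign under median-ratio scaling and quantile normalization but not always when 1 library was left out, as given above, and the medians of the ribbon synapse, clock and receptor lists, close to 0, changed sign. The share called in either direction, 26.3% over all genes tested, was lower in several other lists as well. It was 23.5% for ganglion cell, 23.1% for BMP and TGF-beta, 21.8% for protocadherin, 16.7% for interferon and 6.25% for lens genes. For the list with Aplp2 it was 20%. Close to the overall share stood immediate early genes at 26.7% and rod, microglia and vessel genes at 30% each. The ribbon synapse, dopamine, neuropeptide, clock, histocompatibility and extracellular matrix lists were at 33.3% each. Apart from oxidative phosphorylation, the remaining lists were at 35.7% or more. Counts for lists of a few genes rest on single calls near the limit, and no list was tested as a set.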

How the data were processed

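Retinas of the 6 libraries were measured by stranded sequencing of total RNA. The authors trimmed low-quality bases, aligned with STAR to GRCm38/mm10, quantified genes in Partek Flow by an E/M algorithm and deposited cpm, scaled to all reads of a library, with 0.0001 added. Tool versions and the strand setting of the counting are not given in the sources used here. The study's text names RefSeq as the annotation, while the biotypes of the table are of the Ensembl type. The genes listed sum to 332472 to 354904 cpm in the 6 libraries. Between 90.4% and 91.2% of low values were whole numbers of reads within 0.05 reads, and no test made for counts was run. The step between low values gave the depths.

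Values were tested as log2(cpm + 1) two-sided with limma 3.58.1 under R 4.3.3, using lmFit followed by eBayes (trend on), for genes averaging 0.5 cpm or more, without chromosomes X and Y. Storey's q was computed with an own implementation (share of true nulls 0.366) and limited to 0.01. The fit was tested on simulated data. Only the 3 WSB/EiJ and 3 NZO/HlLtJ libraries, grouped by the strain label, entered the fit. Alternatives were a pseudocount of 0.1, no filter, a mean of at least 5, median-ratio scaling, quantile normalization, all 24 libraries, no trend, X and Y kept, a q of 0.05, Benjamini-Hochberg adjustment and leaving out each library in turn.

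Named genes were the 12 largest differences in each direction among called protein-coding genes averaging 2 cpm or more and groups that do not overlap, up to 4 called genes with the largest moderated statistic in each of 32 gene lists, a fixed set that includes Egr1, Aplp2, Th, Vip, Gjd2, Bmp2, Bmp4, Opn1sw and Opn4, and up to 6 genes in which a strain lay above or below the other 21 libraries. Some genes that the rule names are not reported here. Genes outside this rule were chosen after their values were seen. The members and the lists were chosen with earlier results of these data known. Shared sequence was counted as 31-base words in transcripts of GENCODE M21 on GRCm38, for 191 of 191 genes looked up. Genes were grouped for sums where a gene held 50% of the words of a named gene or shared 50% of its own. Coordinates are those of the table, on GRCm38, except for promoters, which are from RefSeq.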

Additional observations from a re-analysis of the deposited data

How the results depend on the processing

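The number of genes called was 4112. It moved to 2582 with no filter (27810 genes tested), to 2483 with a mean of at least 5 cpm (8848 tested) and to 7051 with q under 0.05, and to between 2410 and 4803 when 1 library was left out. The number of called genes higher in WSB/EiJ, 1859, moved to 1131 with no filter, to 1063 with a mean of at least 5 cpm and to 3027 with q under 0.05, and to between 1146 and 2349 when 1 library was left out. Fewer or more genes tested, fewer samples and a wider limit are part of these settings. Benjamini-Hochberg adjustment called 2917 genes, all among the 4112. The share of called genes higher in WSB/EiJ, 45.2%, lay between 42.3% and 53.8% under the other alternatives and between 41.0% and 49.0% when 1 library was left out. The 4050 genes called with a pseudocount of 0.1 held 4040 of the 4112, and the counts were 4172 with median-ratio scaling (3784 shared), 4100 with quantile normalization (3811 shared), 4742 with all 24 libraries (3893 shared), 3898 without the trend (3753 shared) and 4230 with X and Y kept (4110 shared). No gene called in both of these and in the original setting changed direction. Of 145 called genes named by the rule, 100 kept the call in every alternative in which they were tested, 45 lost it in at least 1 and 0 were reversed. Of the losses, all 45 genes lost the call with no filter. Of these, the report names Col6a3, Gngt1, Cngb1, Rgs9, Bsn, Gpr179, C4b, P2ry12, Hbb-bs, Drd1, Drd4, Drd5, Vip, Stra6, Foxo3 and mt-Nd1. Rpe65, Aldoa and Chrm2, named outside the rule, lost the call with no filter as well. With no filter the counts of most lists fell, for example to 3 higher for cone genes, 1 for photoreceptor transcription factors, 4 for bipolar genes, 6 for amacrine and horizontal cell genes, 4 for pigment epithelium, 4 for human refractive error genes, 0 for clock genes, 0 for insulin genes, 0 for retinoic acid genes, 1 for ganglion cell genes and 4 for protocadherins, and to 0 lower for dopamine genes, 5 for glycolysis, 3 for oxidative phosphorylation and 13 for ribosomal proteins, while higher genes rose from 1 to 3 in the interferon list, from 3 to 4 in the histocompatibility list, where 1 lower gene was added, and from 2 to 3 in the BMP and TGF-beta list. Th and Opn4 were called with q under 0.05. The fit with log2(Xist + 1) as covariate was not run because all 6 libraries were low in Xist. No paired analysis was possible because the labels give no replicate numbers, and replicates were numbered in accession order. A difference in a gene with a mean near 0.5 cpm rests on few reads, so a low gene that was not called may still differ.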

Other observations

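Single libraries stood apart within a strain for some genes. Mobp, a myelin gene of oligodendrocytes, which lie in the optic nerve rather than the mouse retina, was at 6.02 cpm in NZO/HlLtJ replicate 1 and at 0.0576 and 0.0785 cpm in the other 2 libraries of that strain, and it did not exceed 0.0153 cpm in WSB/EiJ. Tacc2, a centrosomal protein, was at 15.4 cpm in NZO/HlLtJ replicate 1 and at 52.7 and 53.6 cpm in replicates 2 and 3, against 18.9, 17.7 and 19.3 cpm in WSB/EiJ. Optc, a matrix protein of the ciliary body and vitreous, was at 1.18, 5.42 and 0.903 cpm in WSB/EiJ, highest in replicate 2, and at 0.688, 0.417 and 0.533 cpm in NZO/HlLtJ. None of these 3 genes was called, and all were chosen after their values were seen.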
